A study of Mus musculus with 25 samples.

Results

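The comparison described here is the difference between the effect of stasis in IL10 knockout mice and its effect in wild type mice. It was taken over 13 of the 25 arrays of a study of surgically made ileal loops, and it was tested in 11227 genes whose probe was detected (detection p under 0.05) on at least 3 of the 25 arrays. Stasis was produced with a self-filling loop, in which gut contents collect, and a self-emptying loop, which drains, was its control. The stasis effect of a genotype is the log2 level in self-filling loops minus the level in self-emptying loops, and the interaction is the IL10 knockout's effect minus the wild type's. All mice were C57Bl/6 females of 6 to 8 weeks operated on at a site 3 cm above the ileocecal valve, where 2.5 cm of ileum was removed, and loops were collected 5 weeks later. The groups were wild type self-emptying loops (n = 4), wild type self-filling loops (n = 3), IL10 knockout self-emptying loops (n = 3) and IL10 knockout self-filling loops (n = 3). A gel diet before the operation, and the operation itself, were common to all 4 groups. The knockout is labelled only as IL10 KO, with no further description of the allele. The labels do not say whether arrays of a group came from separate mice, so p-values measure the spread between these arrays.

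Interleukin 10 is a cytokine made by regulatory T cells, macrophages and other leukocytes, and it restrains the response of macrophages and T cells to the gut flora. Mice that lack it are known for a spontaneous enterocolitis that needs gut bacteria, with interferon gamma and interleukin 12 and 17 pathways active. Stasis of intestinal contents lets bacteria multiply, and bacterial products reach the mucosa through toll-like receptors that act on the transcription factor NF-kB.

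The 13 arrays had 12123 to 13505 of 25697 probes detected per array. Their signal ratio (95th percentile over median signal) differed more, from 9.36 to 16.26. It was 9.36 to 11.60 on arrays with codes 9 to 16 (array codes are described below) and at least 13.63 on the others. No wild type self-filling loop has a code from 9 to 16. By group the ratio was 15.30 to 16.26 in wild type self-filling and 9.50 to 15.33 in wild type self-emptying loops. In the IL10 knockout it was 11.60 to 15.30 in self-filling and 9.36 to 14.98 in self-emptying loops. Counts with this ratio as a covariate are given at the end. Loops of all 4 groups carried high levels of the ileal bile acid carrier Fabp6, at 13.87 ± 0.06 (SD, n = 4) in wild type self-emptying loops and 13.82 ± 0.24 (n = 3) in IL10 knockout self-filling loops, on the normalized log2 scale used throughout. The Il10 probe was not above background on any of the 7 wild type arrays and was detected on all 6 IL10 knockout arrays, at 7.72, 5.72 and 6.51 in self-emptying and 7.45, 7.24 and 7.34 in self-filling loops. That goes against an absence of Il10 message in the arrays labelled IL10 knockout, and since the place of the probe relative to the deleted part is unknown it does not check the genotype. The genotypes are therefore given as labelled, and every direction below rests on those labels. Its interaction was 0.51 ± 0.38 (SE, adjusted p = 0.477). Tlr4, the endotoxin receptor, had an interaction of 0.07 ± 0.28 (adjusted p = 0.925).

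In the wild type arrays a fat signal differed with the type of loop. The summed level of 10 adipocyte genes (log2 of the sum of their intensities) ranged from 10.35 to 15.004 in wild type self-emptying loops and from 9.43 to 9.96 in wild type self-filling loops, and in the IL10 knockout from 9.98 to 12.55 and from 9.53 to 10.81. Cfd, the adipocyte protease adipsin, stood at 11.83, 12.85, 13.62 and 8.56 in wild type self-emptying loops and at 6.91, 4.72 and 7.20 in self-filling loops. All 4 draining wild type loops were above all 3 filled ones, by amounts that differed widely between arrays. All 10 adipocyte genes were detected on at least 1 of the 13 arrays. The tissue is bulk, so fewer cells of a type and less RNA per cell cannot be told apart in any result below.

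The stasis effect differed between the genotypes for 265 of the 11227 genes (percent called 2.36) at an adjusted p under 0.05 (limma's moderated test, Benjamini-Hochberg over all genes), and 164 of these differed by at least 1 on the log2 scale. The interaction was positive for 114 genes (1.02%) and negative for 151 (1.34%), and its median over all genes was -0.03. The estimates of the genotypes had opposite signs for 96 of the 114 positive and 138 of the 151 negative genes, against 42.8% of all genes, and a choice by the difference favours opposite signs, so nothing is read from these counts. Taken alone, stasis changed 1295 genes in wild type loops (11.5%), of which 667 rose (5.94%) and 628 fell (5.59%), and 462 in IL10 knockout loops (4.12%), of which 215 rose (1.92%) and 247 fell (2.2%). The wild type count and its balance depended on the processing: with median scaling 1977 genes rose and 398 fell, and without wild type self-filling replicate 3 356 genes passed in all. In the knockout 132 rose and 78 fell with median scaling, and 104 passed in all without self-filling replicate 1. Between the genotypes, 1072 genes differed in draining loops (9.55%) and 1413 in filled loops (12.6%). The 2 genotypes shared 82 of the genes changed by stasis, which is 6.33% of the wild type's and 17.7% of the knockout's, and 77 of the 82 moved the same way. Over all genes the stasis effects of the genotypes correlated with a Pearson r of 0.251, which is a description across genes that share one normalization.

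Which genotype moved differed with the sign of the interaction. Among the 114 positive genes, 59 rose in the IL10 knockout with no call in wild type, 43 fell in wild type with no call in the knockout, and 3 (Arl6ip5, Emb and Igfbp3) did both. Among the 151 negative genes, 80 rose in wild type alone, 44 fell in the knockout alone, and 2 (LOC100045403 and Rtn4ip1) rose in wild type and fell in the knockout. Tinag, chosen for mention after its values were seen, fell in both, by 0.48 in wild type and by 1.27 in the knockout. The remaining 9 positive and 24 negative genes passed in the interaction but in neither genotype alone. No positive gene rose in both genotypes and no negative gene rose in both. These classes rest on the calls in each genotype and move with them. With median scaling, 29 of the 114 fell in wild type alone and 49 rose in the knockout alone, and 118 of the 151 rose in wild type alone and 15 fell in the knockout alone. Without wild type self-filling replicate 3, 21 of the positive genes fell in wild type alone, and the negative genes divided into 40 that rose in wild type alone, 43 that fell in the knockout alone and 68 with neither. Without IL10 knockout self-filling replicate 1, 28 positive genes rose and 11 negative genes fell in the knockout alone. With the mean of the adipocyte genes as a covariate, 13 positive genes fell in wild type alone, 23 negative genes rose there alone and 46 fell in the knockout alone. These 2 counts of negative genes were 19 and 47 without wild type self-emptying replicates 2 and 3, and 40 and 47 with the signal ratio as a covariate. In all other fits except the one without wild type self-filling replicate 3, wild type rises were the more frequent.

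**Figure D1:**
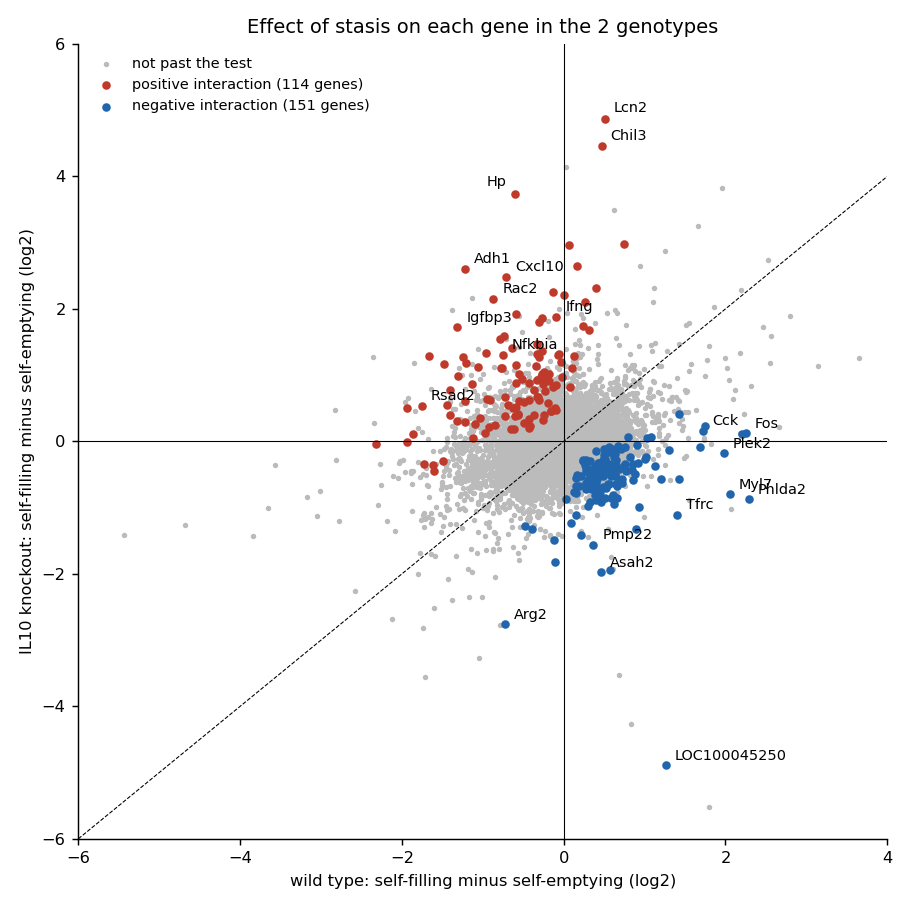
Each point is a gene, with the log2 self-filling minus self-emptying difference in wild type on the horizontal axis and in the IL10 knockout on the vertical axis; the dashed line marks equal effects. The 114 genes with a positive interaction (red) lie above the line and the 151 with a negative one (blue) below it, as their choice requires, and grey genes did not pass the test.

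The number of genes depended on single arrays. It fell to 52 without wild type self-filling replicate 3, to 84 without wild type self-filling replicate 1, to 103 without IL10 knockout self-filling replicate 1 and to 124 without wild type self-emptying replicate 2. It was 131, 149 and 139 without IL10 knockout self-emptying replicate 3, IL10 knockout self-emptying replicate 2 and wild type self-emptying replicate 3, and 171 without IL10 knockout self-filling replicate 2. It rose to 515 without wild type self-filling replicate 2. A set of 44 genes, 22 positive and 22 negative, passed in every one of those fits, and genes named below as passing throughout belong to it. They were chosen after their values were seen. Without background correction the calls of Arg2 (adjusted p = 0.24), LOC100045250 (0.0892), Rsad2 (0.0834), Ifit2 (0.0745), Cd68 (0.0526) and C1qb (0.0506) were lost, and with median scaling those of Lgmn (0.0909), Cyp51 (0.0881), Lyve1 (0.0806), Car9 (0.0761) and Arl6ip5 (0.0671).

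The labels give each array a code. The codes were divided here into runs of 8 as an assumed batch, since the labels do not say how codes relate to slides or processing. The run of codes 1 to 8 and the run of codes 17 to 24 hold all 4 groups, whereas codes 9 to 16 hold no wild type self-filling loop. Within both of the runs that hold all groups, the interaction had the same sign as over all arrays for all 265 genes and for 52.9% of the genes tested, but the 265 were chosen on values that include those arrays, so their signs there are no separate support. With the run as a block 279 genes passed, 212 of them among the 265. Without codes 9 to 16, which leaves 2 or 3 arrays in each group, 9 genes passed, 8 of them among the 265. Of the 30 largest interactions, 12 passed in every fit that left out 1 array, 28 passed with the run as a block and 3 without codes 9 to 16.

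**Figure D2:**
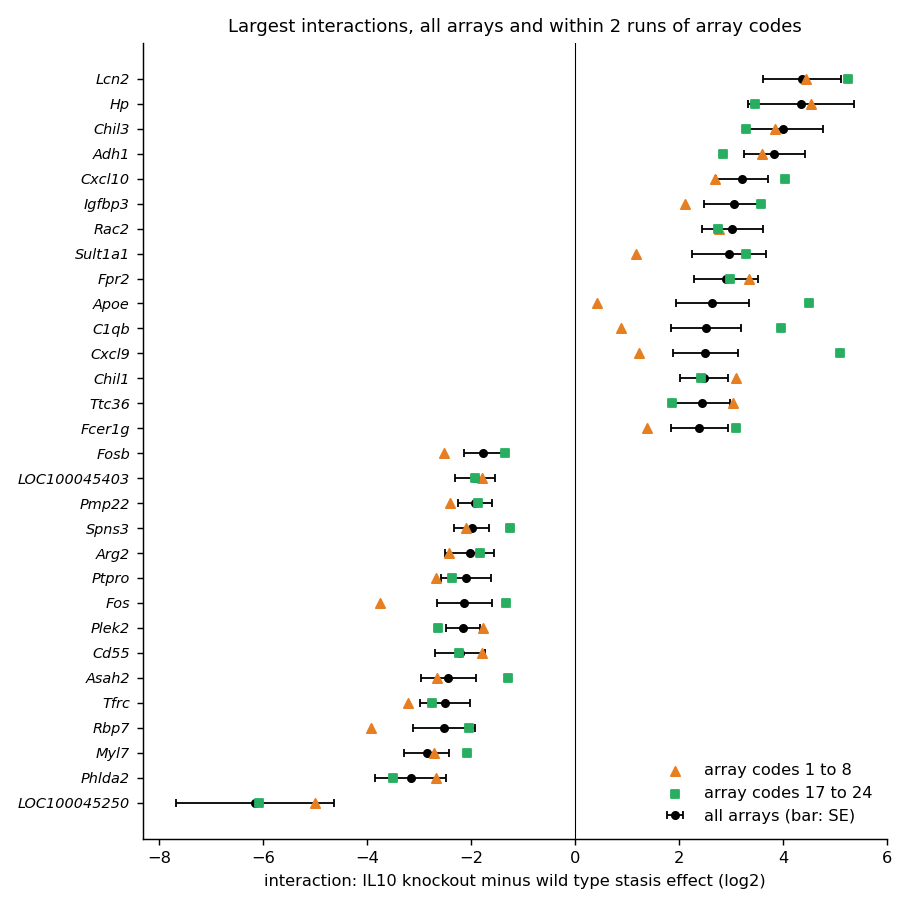
The 15 largest positive and 15 largest negative interactions (log2, horizontal axis) are shown from all arrays (black, bar 1 SE) and from the means within array codes 1 to 8 (triangles) and 17 to 24 (squares). The genes were chosen on these same arrays, and all symbols of a gene lie on the same side of 0. Apoe, at 0.42 and 4.50 in the 2 runs, C1qb, at 0.87 and 3.95, and Cxcl9, at 1.22 and 5.10, are spread the most among the positive genes.

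Lcn2, Hp and Chil3 had the largest positive interactions among the genes that passed, and for these and the other genes of acute phase and phagocyte products given here the call was in the IL10 knockout. Lcn2, which encodes the siderophore-binding antimicrobial lipocalin 2, stood at 6.10, 4.79, 6.43 and 6.25 in wild type self-emptying loops, at 6.49, 7.32 and 5.38 in wild type self-filling loops, at 7.98, 6.48 and 7.75 in IL10 knockout self-emptying loops and at 12.99, 12.96 and 10.87 in IL10 knockout self-filling loops. The 3 filled knockout loops were above all other arrays, and the wild type groups overlapped. Lcn2 rose by 4.87 ± 0.55 in the knockout (adjusted p = 2.32e-05) and differed by 0.51 ± 0.51 in wild type (adjusted p = 0.54), an interaction of 4.36 ± 0.75 (adjusted p = 0.00689), with 4.44 and 5.25 in the 2 runs that hold all groups. It passed in every fit that left out 1 array.

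Hp, the haemoglobin-binding acute phase protein haptoglobin, was at 5.50, 6.62, 7.22 and 4.32 in wild type self-emptying, 4.98, 6.28 and 4.67 in wild type self-filling, 6.55, 4.97 and 5.68 in IL10 knockout self-emptying and 10.34, 9.29 and 8.79 in IL10 knockout self-filling loops. Its filled knockout loops again exceeded every other array, while the remaining groups overlapped. Its interaction was 4.34 ± 1.01 (adjusted p = 0.0273). Chil3, a chitinase-like protein of mouse macrophages and neutrophils, reached 10.63, 10.05 and 8.78 in filled knockout loops against 4.57, 5.42 and 6.08 in draining ones. In wild type loops it was not above background on any of the 4 self-emptying arrays and was detected on 1 of the 3 self-filling arrays, so its interaction of 4.00 ± 0.77 (adjusted p = 0.0123) is set against background in that genotype. Chil1, another chitinase-like protein, rose by 2.64 ± 0.34 in the knockout and had an interaction of 2.48 ± 0.47 (adjusted p = 0.0115).

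Fpr2, a receptor for formylated bacterial peptides on phagocytes, rose from 7.20, 5.66 and 6.49 to 10.26, 9.49 and 8.47 in the knockout, and lay between 4.31 and 5.34 on all 7 wild type arrays, of which only 1 self-emptying and 1 self-filling array were above background. Its interaction, set mostly against background in wild type, was 2.90 ± 0.61 (adjusted p = 0.0194). Il1r2, the decoy receptor for interleukin 1, and Tnf, the inflammatory cytokine, rose in the knockout by 1.74 ± 0.27 and 1.47 ± 0.33 and had interactions of 1.503 ± 0.365 (adjusted p = 0.0327) and 1.80 ± 0.45 (adjusted p = 0.0376). Il1r2 was not above background on any wild type array, Tnf was above it on 2 of 4 self-emptying and 1 of 3 self-filling wild type arrays, and Chil1 on 1 and 2. Lcn2, Chil3 and Chil1 passed in all 13 fits that left out 1 array, Fpr2 in 10, Hp in 6, Il1r2 in 5 and Tnf in 4. The weakest fit for Hp, Fpr2 and Tnf was the one without wild type self-filling replicate 3, with adjusted p of 0.0868, 0.0655 and 0.102, and for Il1r2 the one without IL10 knockout self-filling replicate 1, with 0.0855.

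Of 11 acute phase genes tested, 2 passed in the interaction (Lcn2 and Hp, both positive), 4 rose with stasis in the knockout and 1 in wild type, and the list's median interaction was 1.16. Of 9 neutrophil genes, 1 passed in the interaction and 4 rose in the knockout against 0 in wild type (1 of the 9 had an unadjusted p under 0.05 there), with a median of 1.04. Of 17 genes for interleukin 1, 6 and 17, Tnf and myeloid chemokines, 2 passed and the median was 0.64, beside -0.03 over all genes. Among all genes tested 1.02% passed with a positive interaction, 1.92% rose in the knockout and 5.94% rose in wild type. The calprotectin genes S100a8 and S100a9, chosen after their values were seen, did not pass (1.87 ± 1.19, adjusted p = 0.402, and 1.62 ± 1.00, adjusted p = 0.386). S100a8 rose by 3.83 ± 0.87 with stasis in the knockout (adjusted p = 0.0167) and was already higher in draining knockout than in draining wild type loops by 4.26 ± 0.81 (adjusted p = 0.00266).

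Interferon gamma and 2 chemokines it induces also had their call in the IL10 knockout. Ifng, the cytokine of Th1 and natural killer cells, was not above background on any wild type array and was detected on 1 of 3 draining and all 3 filled knockout arrays. Its values were 4.37, 4.57, 4.41 and 4.27 in wild type self-emptying, 4.37, 4.28 and 4.29 in wild type self-filling, 5.45, 4.46 and 4.76 in IL10 knockout self-emptying and 7.19, 6.32 and 6.79 in IL10 knockout self-filling loops. Filled knockout loops did not overlap any other group. Ifng rose by 1.88 ± 0.19 in the knockout (adjusted p = 8.71e-06), and its interaction of 1.97 ± 0.26 had an adjusted p of 0.000883. The interaction was 2.48 and 2.32 within the 2 runs and passed without codes 9 to 16 (adjusted p = 3.45e-05) and in every fit that left out 1 array. A further Ifng probe gave 1.34.

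Cxcl10 and Cxcl9 encode chemokines that attract CXCR3-bearing T cells, Gbp3 a guanylate-binding protein and Rsad2 the antiviral protein viperin, all induced by interferons, and Nfkbia encodes the inhibitor of NF-kB, itself an NF-kB target. The 250 bases before the start of 4 of these genes are shown because their levels are described next and each holds a match to an interferon or an NF-kB motif. They are from RefSeq on GRCm38.p6, read 5′ to 3′ on the strand of the gene, at chr5:92348890-92349139 (minus strand) for Cxcl10, chr3:142559794-142560043 (plus) for Gbp3, chr12:26456453-26456702 (minus) for Rsad2 and chr12:55492648-55492897 (minus) for Nfkbia. Capitals mark matches on either strand to GAAANNGAAA, the interferon-stimulated response element, or GGGANNNNCC, an NF-kB site.
Cxcl10: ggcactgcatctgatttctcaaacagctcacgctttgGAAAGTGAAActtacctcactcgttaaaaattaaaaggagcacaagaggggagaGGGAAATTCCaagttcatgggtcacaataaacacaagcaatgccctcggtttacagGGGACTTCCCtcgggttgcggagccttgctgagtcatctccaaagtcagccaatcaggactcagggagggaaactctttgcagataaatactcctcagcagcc
Gbp3: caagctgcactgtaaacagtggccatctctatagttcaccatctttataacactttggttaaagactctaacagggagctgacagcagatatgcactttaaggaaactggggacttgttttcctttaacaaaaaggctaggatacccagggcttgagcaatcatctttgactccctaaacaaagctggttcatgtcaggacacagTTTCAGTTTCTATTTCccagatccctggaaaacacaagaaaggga
Rsad2: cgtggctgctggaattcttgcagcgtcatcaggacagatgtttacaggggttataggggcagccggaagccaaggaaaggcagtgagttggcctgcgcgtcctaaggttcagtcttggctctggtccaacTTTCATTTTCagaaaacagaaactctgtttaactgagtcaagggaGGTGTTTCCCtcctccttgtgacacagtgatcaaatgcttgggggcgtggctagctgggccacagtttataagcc
Nfkbia: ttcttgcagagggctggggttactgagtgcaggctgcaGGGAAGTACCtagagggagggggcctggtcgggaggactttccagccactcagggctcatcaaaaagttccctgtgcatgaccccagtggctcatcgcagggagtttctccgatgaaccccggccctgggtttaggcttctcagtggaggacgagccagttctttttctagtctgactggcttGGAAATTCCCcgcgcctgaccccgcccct
In Cxcl10 the interferon match ended 204 bases before the start and the NF-kB matches ended 150 and 94 bases before it, in Gbp3 2 overlapping interferon matches ended 36 and 30 bases before it, in Rsad2 the interferon and NF-kB matches ended 111 and 66 bases before it, and in Nfkbia the NF-kB matches ended 203 and 20 bases before it. Of 8741 tested genes with such a sequence, 3.29% held GAAANNGAAA, as did 5 of 84 genes with a positive interaction (5.95%) and 1 of 126 with a negative one (0.794%). The NF-kB letters were held by 25.9% of all, by 30 of the 84 positive (35.7%) and by 37 of the 126 negative genes (29.4%). These are matches of letters in this window and not evidence of binding.

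Cxcl10 showed both a rise in the knockout and low levels in filled wild type loops. It was at 4.75, 5.14, 5.80 and 4.76 in wild type self-emptying loops, at 4.49, 4.42 and 4.27, not above background, in wild type self-filling loops, at 6.44, 4.89 and 6.37 in IL10 knockout self-emptying and at 8.76, 7.97 and 8.44 in IL10 knockout self-filling loops. Filled knockout loops were above all other arrays. Cxcl10 rose by 2.49 ± 0.37 in the knockout (adjusted p = 0.000614), and its interaction was 3.20 ± 0.50 (adjusted p = 0.00395), with 2.68 and 4.03 in the 2 runs and an adjusted p of 0.00554 without codes 9 to 16.

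Cxcl9 was already raised in draining knockout loops, at 9.73, 7.94 and 9.77 against 6.67, 7.04, 7.48 and 7.36 in draining wild type loops, and reached 11.25, 10.47 and 11.47 in filled knockout loops against 6.38, 7.49 and 5.78 in filled wild type loops. It rose by 1.92 ± 0.46 in the knockout (adjusted p = 0.0215), with an interaction of 2.50 ± 0.62 (adjusted p = 0.0371). Nfkbia was at 9.47, 9.41 and 9.06 in draining and 10.91, 10.28 and 10.69 in filled knockout loops, a rise of 1.31 ± 0.27 (adjusted p = 0.0074), and at 9.52, 9.54, 9.35 and 8.84 and at 8.75, 8.55 and 8.37 in draining and filled wild type loops. In both genotypes filled and draining loops did not overlap, in opposite directions, although the wild type difference of -0.76 ± 0.25 did not pass (adjusted p = 0.0515). The interaction of Nfkbia was 2.07 ± 0.36 (adjusted p = 0.00813), and it passed in every fit that left out 1 array.

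For Gbp3 and Rsad2 the call was in wild type. Gbp3 fell in wild type loops from 6.60, 7.10, 7.55 and 7.29 to 6.18, 6.37 and 5.47, by 1.13 ± 0.31 (adjusted p = 0.0234), and stood at 8.49, 7.36 and 8.25 in draining and 9.03, 8.66 and 8.999 in filled knockout loops. The knockout difference of Gbp3, 0.86 ± 0.33, did not pass (adjusted p = 0.14), although its filled knockout loops were above all draining ones. Rsad2 fell in wild type loops from 7.42, 6.95, 7.55 and 7.36 to 5.86, 5.03 and 5.82, by 1.75 ± 0.35 (adjusted p = 0.00524), and stood at 6.97, 6.46 and 6.65 in draining and 7.78, 6.92 and 7.00 in filled knockout loops. Filled wild type loops were the lowest arrays for both genes. Their interactions were 1.99 ± 0.45 (adjusted p = 0.026) and 2.29 ± 0.52 (adjusted p = 0.0264). Ifit2, an interferon-induced antiviral protein, had an interaction of 2.29 ± 0.58 (adjusted p = 0.0394) and passed in neither genotype alone.

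In the interferon gamma list, 4 of 19 genes passed in the interaction, all positive (Cxcl10, Cxcl9, Gbp3 and Ifng), 3 rose in the knockout, 2 fell in wild type, and the median interaction was 0.79. In the type I interferon list, 2 of 20 passed (Rsad2 and Ifit2), 3 fell in wild type and 0 passed in the knockout (4 at an unadjusted p under 0.05), with a median of 0.30. In the list for the endotoxin receptor and NF-kB, 1 of 21 passed, Nfkbia, with a median of 0.29. Of the 15 genes of interleukin 10 signalling and its STAT3 feedback, 0 passed in limma, 0 had an unadjusted p under 0.05, and the median was -0.12. Among all genes tested 1.02% passed with a positive interaction, 1.92% rose in the knockout and 5.59% fell in wild type. Single arrays mattered for several calls: Rsad2 passed in 9, Gbp3 in 8, Cxcl9 in 5 and Ifit2 in 5 of the 13 fits that left out 1 array, with highest adjusted p of 0.0737 and 0.102 for Rsad2 and Ifit2 without IL10 knockout self-filling replicate 1, and of 0.0847 and 0.128 for Gbp3 and Cxcl9 without wild type self-filling replicate 3.

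**Figure D3:**
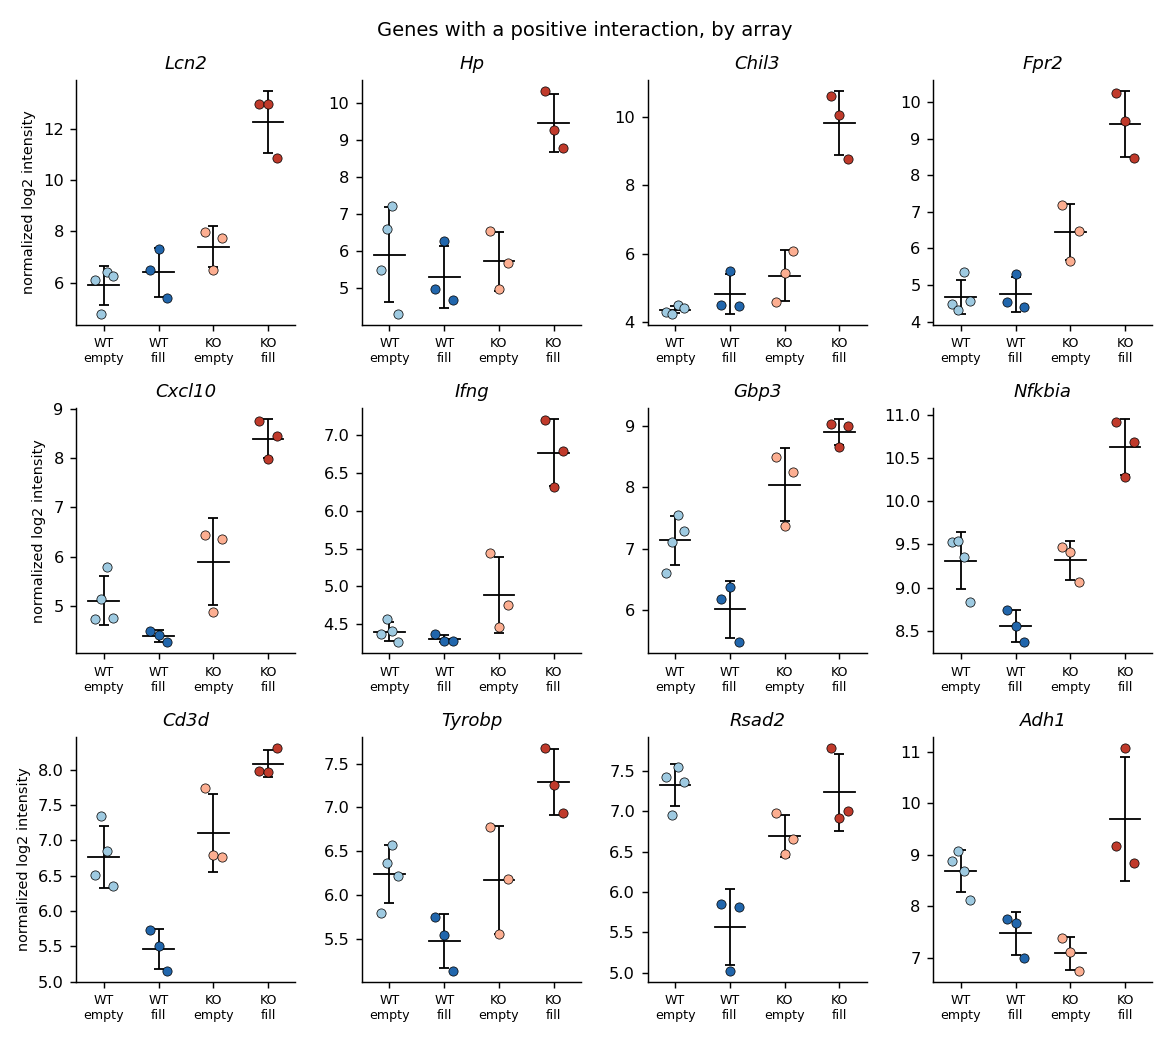
Normalized log2 intensity of 12 genes with a positive interaction on each of the 13 arrays, in wild type (WT) and IL10 knockout (KO) self-emptying (empty) and self-filling (fill) loops; lines are means and bars 1 SD. Filled knockout loops stand above every other array for Lcn2, Hp, Chil3 and Cxcl10, whereas for Rsad2 the filled wild type loops, at 5.86, 5.03 and 5.82, stand below the rest.

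The median stasis effect of T cell and macrophage genes was below 0 in wild type (-0.94 and -0.73) and above 0 in the knockout (0.38 and 0.67). Cd3d, a chain of the T cell receptor complex, was at 6.51, 7.34, 6.85 and 6.36 in wild type self-emptying, 5.73, 5.50 and 5.16 in wild type self-filling, 7.74, 6.80 and 6.77 in IL10 knockout self-emptying and 7.98, 7.97 and 8.31 in IL10 knockout self-filling loops. In both genotypes filled and draining loops did not overlap, and they lay in opposite order. Cd3d fell by 1.30 ± 0.40 in wild type (adjusted p = 0.0402), differed by 0.99 ± 0.43 in the knockout (adjusted p = 0.197) and had an interaction of 2.29 ± 0.59 (adjusted p = 0.0419).

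Nkg7, a granule protein of cytotoxic lymphocytes, fell by 1.44 ± 0.32 in wild type (adjusted p = 0.00918), and its interaction was 1.99 ± 0.47 (adjusted p = 0.0295). Il7r, the interleukin 7 receptor chain of resting lymphocytes, fell in wild type by 0.95 ± 0.21 (adjusted p = 0.00775), with an interaction of 1.59 ± 0.30 (adjusted p = 0.0118) that passed in all fits that left out 1 array. Its knockout difference of 0.64 ± 0.22 did not pass (adjusted p = 0.101), although filled knockout loops were above all draining ones. Cd28, the costimulatory receptor of T cells, moved instead in the knockout. It was not above background on any of the 3 draining knockout arrays and was at 5.49, 5.47 and 5.28 in the filled ones, at least 1.51-fold higher against the detection limit, and its interaction was 0.98 ± 0.19 (adjusted p = 0.0123).

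Tyrobp, an adaptor of myeloid receptors, was at 5.80, 6.37, 6.57 and 6.22 in wild type self-emptying, 5.75, 5.55 and 5.14 in wild type self-filling, 6.78, 5.56 and 6.19 in IL10 knockout self-emptying and 7.68, 7.25 and 6.93 in IL10 knockout self-filling loops. Filled knockout loops were above all other arrays and filled wild type loops below all draining wild type ones. It rose by 1.11 ± 0.30 in the knockout (adjusted p = 0.0389), with an interaction of 1.87 ± 0.41 (adjusted p = 0.0221). Cd68, a lysosomal protein of macrophages, rose by 1.41 ± 0.40 in the knockout (adjusted p = 0.0476), and its interaction was 2.04 ± 0.54 (adjusted p = 0.049). Its knockout groups overlapped, at 5.90, 4.77 and 5.33 in draining and 7.30, 7.04 and 5.89 in filled loops. It was above background on 1 of 3 filled wild type and 2 of 3 draining knockout arrays.

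For Fcer1g, the shared signalling chain of Fc receptors, the call was in wild type, with a fall of 1.21 ± 0.37 (adjusted p = 0.0402) and an interaction of 2.39 ± 0.55 (adjusted p = 0.0271). Its knockout difference of 1.18 ± 0.40 was of similar size but did not pass (adjusted p = 0.0923). Filled knockout loops were above all draining ones, whereas the wild type groups overlapped. C1qb, a chain of complement C1q made by macrophages, had an interaction of 2.52 ± 0.67 (adjusted p = 0.0485) and passed in neither genotype alone. Rac2, the small GTPase of the leukocyte oxidase, rose in the knockout from 6.96, 5.78 and 6.10 to 8.50, 8.56 and 8.24, and was at 5.36, 6.32, 6.64 and 5.75 in draining and 5.14, 4.85 and 5.46 in filled wild type loops. Its interaction of 3.02 ± 0.59 (adjusted p = 0.0123) passed in every fit that left out 1 array.

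Of 16 macrophage and dendritic cell genes, 4 passed in the interaction, 2 rose in the knockout, 2 fell in wild type, and the median interaction was 1.47. The estimate was positive for 15 of them, and for 5200 of 11227 genes tested. Of 14 T cell and cytotoxic genes, 2 passed, 4 fell in wild type and 1 rose in the knockout, with a median of 1.18. Among all genes tested 1.02% passed with a positive interaction, 5.59% fell in wild type and 1.92% rose in the knockout. None of 12 MHC class II genes passed in the interaction in limma (5 at an unadjusted p under 0.05), but 5 fell with stasis in wild type and 0 passed in the knockout, also at an unadjusted p, and the median interaction was 0.65. In filled loops 7 of those 12 were higher in the knockout than in wild type, where 5.95% of all genes were higher, and in draining loops 0 were (2 at an unadjusted p), where 5.24% were. Of 11 B and plasma cell genes 0 passed in the interaction (2 at an unadjusted p), with a median of 0.27.

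The adipocyte genes had a median stasis effect of -2.71 in wild type, below 0 as for these immune genes. In the knockout it was -0.75, against 0.38 for T cell and 0.67 for macrophage genes. Of 13 endothelial genes 5 fell in wild type, and the median interaction was 0.87. The endothelial list had 1 interaction call, Lyve1 of lymphatic vessels, at 1.57 ± 0.39 (adjusted p = 0.0364). Among all genes tested 1.02% passed with a positive interaction. Of the 10 adipocyte genes, 4 fell with stasis in wild type (5.59% of all genes did), 0 passed in the interaction (0 at an unadjusted p), and the median interaction was 1.96. With the mean of the adipocyte list as a covariate, an alternative chosen after the data were seen, 112 genes passed in the interaction, 97 of them among the 265. Lcn2 (adjusted p = 0.0143), Chil3 (0.0253), Cxcl10 (0.011), Ifng (0.0043) and Rac2 (0.0329) were among them. Cd3d (0.106), C1qb (0.119), Cd68 (0.119), Cxcl9 (0.0787), Fcer1g (0.0757), Nkg7 (0.0756) and Tyrobp (0.0605) were not, nor were Hp (0.0559), Fpr2 (0.0515), Rsad2 (0.0536) and Gbp3 (0.0702). In that fit the estimate was 2.47 for Cxcl9 (2.50 without the covariate), 1.89 for Nkg7 (1.99), 2.66 for Fpr2 (2.90), 1.66 for Tyrobp (1.87), 1.75 for Gbp3 (1.99), 1.94 for Cd3d (2.29), 2.01 for Fcer1g (2.39), 2.09 for C1qb (2.52), 2.28 for Rsad2 (2.29), 3.13 for Hp (4.34) and 1.54 for Cd68 (2.04). Stasis in wild type passed for 159 genes with the covariate and for 1295 without it. Of the 30 largest interactions 16 passed in that fit. Without wild type self-emptying replicates 2 and 3, 2 of the arrays highest in the adipocyte genes, 16 genes passed. These are also the only wild type loops with codes 9 to 16, the run with the lowest signal ratios. In the knockout, too, the highest Cfd values of draining (11.51) and filled loops (9.83) were on arrays of that run. Fat, signal ratio and run therefore cannot be told apart in that fit. The part of fat in these results beyond those values was not tested. Without wild type self-filling replicate 3 the adjusted p was 0.126 for Cd3d, 0.148 for C1qb, 0.124 for Cd68, 0.0861 for Fcer1g, 0.0856 for Nkg7, 0.0756 for Tyrobp and 0.126 for Lyve1. In all, Cd3d passed in 4, Nkg7 in 6, C1qb in 3, Cd68 in 5, Fcer1g in 6, Tyrobp in 10 and Lyve1 in 5 of the 13 fits that left out 1 array.

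Adh1, an alcohol dehydrogenase that also oxidizes retinol, was at 8.88, 9.07, 8.69 and 8.13 in wild type self-emptying, 7.76, 7.67 and 7.00 in wild type self-filling, 7.39, 7.11 and 6.75 in IL10 knockout self-emptying and 9.18, 11.08 and 8.84 in IL10 knockout self-filling loops. The order of filled and draining loops was reversed between the genotypes with no overlap in either. Adh1 rose by 2.61 ± 0.43 in the knockout (adjusted p = 0.00151), its wild type difference of -1.22 ± 0.40 did not pass (adjusted p = 0.0527), and its interaction was 3.83 ± 0.59 (adjusted p = 0.00385). A further Adh1 probe gave 3.93, and the call passed in every fit that left out 1 array.

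Igfbp3, a carrier of insulin-like growth factors, fell in wild type by 1.32 ± 0.39 (adjusted p = 0.0337) and rose in the knockout by 1.73 ± 0.42 (adjusted p = 0.0233), from 6.71, 4.99 and 5.80 to 7.70, 8.01 and 6.97. Its interaction was 3.04 ± 0.57 (adjusted p = 0.0115). Emb, a membrane glycoprotein partner of monocarboxylate carriers, did the same, with -0.78 ± 0.24 and 1.11 ± 0.26, and an interaction of 1.89 ± 0.35 (adjusted p = 0.0112). Arl6ip5, a membrane protein of the endoplasmic reticulum, fell by 0.73 ± 0.18 and rose by 0.67 ± 0.19, with 1.40 ± 0.26 (adjusted p = 0.011). In wild type, filled and draining loops overlapped for Igfbp3 (4.94, 6.10 and 4.59 against 5.74, 7.06, 7.12 and 6.18) and for Emb, but not for Arl6ip5. Igfbp3 was above background on 2 of the 3 filled wild type arrays. Within the 2 runs that hold all groups the wild type difference was -0.22 and -1.59 for Igfbp3 and -0.12 and -1.32 for Emb. All 3 interactions passed in every fit that left out 1 array.

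Sult1a1, a phenol sulfotransferase, and Apoe, a lipoprotein component also made by macrophages, fell in wild type by 1.66 ± 0.49 and 1.48 ± 0.47, with interactions of 2.95 ± 0.71 (adjusted p = 0.0321) and 2.64 ± 0.69 (adjusted p = 0.0477). The knockout difference of Apoe, 1.16 ± 0.51, did not pass (adjusted p = 0.198), but its filled knockout loops were above all draining ones and its wild type groups overlapped. Without wild type self-filling replicate 3 the adjusted p of the Sult1a1 and Apoe interactions was 0.11 and 0.148. Ttc36 fell in wild type from 6.65, 7.21, 6.73 and 6.20 to 4.79, 5.11 and 4.39, and in the knockout it was above background on only 1 of 3 draining and 2 of 3 filled arrays. Its interaction of 2.44 ± 0.54 (adjusted p = 0.0234) had an adjusted p of 0.0756 without that same array.

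Several other genes that passed in every fit that left out 1 array showed which genotype carried the difference. Prkg2, the cGMP-dependent kinase II of gut epithelium, fell in wild type from 9.83 ± 0.20 (SD, n = 4) to 8.69, 8.64 and 8.47, and draining knockout loops were already at 8.99, 8.77 and 8.77. The draining knockout loops thus lay below all draining wild type loops, by 0.99 ± 0.18 (adjusted p = 0.00196), and the interaction of Prkg2 was 1.52 ± 0.26 (adjusted p = 0.00689). The lysosomal proteases Ctsh and Lgmn rose in the knockout by 0.94 ± 0.19 and 1.31 ± 0.23, with interactions of 1.45 ± 0.27 (adjusted p = 0.00961) and 1.65 ± 0.31 (adjusted p = 0.0118). Ccrl2, a chemerin-binding receptor of leukocytes, rose by 0.88 ± 0.16 in the knockout, with an interaction of 1.31 ± 0.23 (adjusted p = 0.00689). Cfhr2, of the complement factor H family, was detected on the 3 filled knockout arrays alone, at 5.98, 5.68 and 5.16, which is at least 1.73-fold above draining knockout loops.

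Among negative interactions the commonest class in the main fit was a rise in wild type with no call in the knockout, though not in every alternative fit given above. Plek2, a pleckstrin family protein of the cell cortex, was at 8.88, 8.59, 8.52 and 8.43 in wild type self-emptying, 10.90, 10.29 and 10.57 in wild type self-filling, 9.30, 9.31 and 9.27 in IL10 knockout self-emptying and 9.21, 9.34 and 8.81 in IL10 knockout self-filling loops. Filled wild type loops were above all other arrays, and the knockout groups overlapped. Plek2 rose by 1.98 ± 0.23 in wild type (adjusted p = 5.86e-05), differed by -0.17 ± 0.24 in the knockout (adjusted p = 0.743) and had an interaction of -2.16 ± 0.33 (adjusted p = 0.00385), with -1.78 and -2.64 in the 2 runs.

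Cck, the satiety hormone cholecystokinin of enteroendocrine cells, rose in wild type from 6.27, 5.17, 5.45 and 6.23 to 7.65, 7.50 and 7.37 and lay between 6.23 and 6.47 on all 6 knockout arrays. Its interaction was -1.57 ± 0.30 (adjusted p = 0.0118). Phlda2, an imprinted pleckstrin-homology protein, was at 4.83, 4.86, 6.06 and 5.00 in draining and 8.04, 6.45 and 7.94 in filled wild type loops and at 6.73, 5.05 and 5.84 in draining and 5.58, 4.93 and 4.50 in filled knockout loops. Filled wild type loops overlapped only with the highest draining knockout array, and the interaction was -3.16 ± 0.68 (adjusted p = 0.0204). Ptpro, a receptor tyrosine phosphatase, and Spns3, a member of a sphingolipid transporter family, rose in wild type by 2.21 ± 0.33 and 1.42 ± 0.23, with interactions of -2.10 ± 0.48 (adjusted p = 0.0273) and -1.99 ± 0.34 (adjusted p = 0.00689).

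The immediate early transcription factor Fos was at 7.53, 9.37, 8.99 and 9.76 in draining and 11.06, 11.07 and 11.36 in filled wild type loops, and at 9.59, 9.71 and 10.30 in draining and 10.09, 9.88 and 9.99 in filled knockout loops. It rose by 2.25 ± 0.36 in wild type (adjusted p = 0.00098), with an interaction of -2.13 ± 0.53 (adjusted p = 0.0364). Fosb, of the same family, rose by 1.20 ± 0.25 in wild type and had an interaction of -1.77 ± 0.36 (adjusted p = 0.0171). Its knockout difference of -0.57 ± 0.265 did not pass (adjusted p = 0.228), although filled knockout loops were below all draining ones. Fos and Fosb were the 2 genes of 15 immediate early genes that passed (1.34% of all genes had a negative call), and the list's median was -0.39. Plek2, Cck and Spns3 passed in every fit that left out 1 array, Fosb in 12, Phlda2 in 11, Ptpro in 8 and Fos in 6. The highest adjusted p was 0.105 for Fos, 0.0702 for Phlda2 and 0.0756 for Ptpro without wild type self-filling replicate 3, and 0.0511 for Fosb without wild type self-filling replicate 1.

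Genes of hypoxia and glycolysis rose with stasis in wild type for 9 of 17 members and in the knockout for 0 (6 at an unadjusted p under 0.05). In the interaction 2 passed, both negative, where 1.34% of all genes had a negative call. Over all genes 5.94% rose in wild type and 1.92% in the knockout, so few calls would be looked for among 17 genes in the knockout. In draining loops 5 of the 17 were already higher in the knockout (12 had an unadjusted p under 0.05), where 5.24% of all genes were, and the list's median difference there was 0.42. Car9, a membrane carbonic anhydrase induced by low oxygen, rose from 9.40, 9.01, 8.72 and 9.21 to 10.05, 10.07 and 10.39 in wild type and was at 9.15, 9.53 and 9.69 and at 9.72, 9.56 and 9.31 in draining and filled knockout loops. The wild type groups did not overlap, the knockout groups did, and the interaction was -1.02 ± 0.27 (adjusted p = 0.0483, and 0.143 without wild type self-filling replicate 3). Ldha, the lactate dehydrogenase subunit of muscle type, had -0.88 ± 0.19 (adjusted p = 0.0223, and 0.0756 without that array), and it was higher in draining knockout than draining wild type loops by 0.42 ± 0.13 (adjusted p = 0.0483). Pgam1, a glycolytic mutase outside the list that passed in every fit that left out 1 array, rose by 0.60 ± 0.12 in wild type and had -1.01 ± 0.18 (adjusted p = 0.00864).

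For another group of negative genes, draining knockout loops already stood near the level of filled wild type loops. These statements set values of the same arrays side by side, since the interaction and the genotype difference in draining loops share them. Myl7, a myosin light chain best known from the heart atrium, was at 6.82, 6.04, 6.39 and 6.82 in wild type self-emptying, 8.88, 8.27 and 8.57 in wild type self-filling, 8.48, 8.62 and 8.80 in IL10 knockout self-emptying and 7.84, 7.38 and 8.29 in IL10 knockout self-filling loops. Draining wild type loops were below all other arrays. Myl7 rose by 2.06 ± 0.30 in wild type (adjusted p = 0.000454) and was higher in draining knockout than draining wild type loops by 2.11 ± 0.30 (adjusted p = 0.000228), and its interaction was -2.85 ± 0.43 (adjusted p = 0.00385).

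Tfrc, the transferrin receptor of iron uptake and of dividing cells, was at 10.64, 10.16, 10.49 and 10.60 in draining and 11.59, 11.84 and 12.18 in filled wild type loops, and at 11.80, 12.22 and 11.94 in draining and 9.81, 11.78 and 11.05 in filled knockout loops. It rose by 1.40 ± 0.33 in wild type (adjusted p = 0.0125), was higher in draining knockout than draining wild type loops by 1.52 ± 0.33 (adjusted p = 0.00695) and had an interaction of -2.51 ± 0.49 (adjusted p = 0.0123), with -2.35 from a further probe. Itpr3, an inositol trisphosphate receptor, and Tmem253 rose by 0.86 ± 0.19 and 1.30 ± 0.17 in wild type and were higher in draining knockout loops by 1.14 ± 0.19 and 1.21 ± 0.17. Their interactions were -1.44 ± 0.28 (adjusted p = 0.0125) and -1.43 ± 0.26 (adjusted p = 0.00864). Myl7, Tfrc, Itpr3 and Tmem253 passed in every fit that left out 1 array.

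All 20 cell cycle genes tested had a negative interaction estimate, with a median of -0.71, but only Ccnd1, cyclin D1, passed. Of all genes tested, 1.34% passed with a negative interaction. Over all genes the estimate was positive for 5200 of 11227, so a negative sign was also the commoner one there. Of the 20, 4 rose with stasis in wild type (5.94% of all genes did) and 1 fell in the knockout (2.2% of all genes did). In draining loops 8 were higher in the knockout (5.24% of all genes were), with a median difference of 0.76. Ccnd1 was at 11.16, 11.08, 11.10 and 11.19 in wild type self-emptying, 11.68, 11.58 and 11.50 in wild type self-filling, 12.17, 12.03 and 12.36 in IL10 knockout self-emptying and 10.78, 11.38 and 11.90 in IL10 knockout self-filling loops. Its wild type difference of 0.45 ± 0.19 did not pass (adjusted p = 0.113), and draining knockout loops were above all filled wild type ones. It fell by 0.83 ± 0.20 in the knockout (adjusted p = 0.0222), where filled loops lay below draining ones without overlap, and its interaction was -1.29 ± 0.27 (adjusted p = 0.0195, and 0.0514 without wild type self-filling replicate 1). Spc24, a kinetochore protein outside the list, rose by 0.74 ± 0.14 in wild type and had an interaction of -1.12 ± 0.21 (adjusted p = 0.0118). Sox9, a transcription factor of crypt base cells, fell by 0.70 ± 0.18 in the knockout, with -1.16 ± 0.25 (adjusted p = 0.0206, and 0.0673 without wild type self-filling replicate 3).

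Rtn4ip1, a mitochondrial oxidoreductase, had the smallest adjusted p among the negative genes together with LOC100044256. It was at 6.28, 6.03, 6.36 and 6.48 in wild type self-emptying, 7.04, 6.69 and 7.01 in wild type self-filling, 7.16, 6.87 and 6.79 in IL10 knockout self-emptying and 5.83, 6.14 and 6.00 in IL10 knockout self-filling loops. The order was reversed between genotypes with no overlap in either: a rise of 0.62 ± 0.14 in wild type (adjusted p = 0.00992), a fall of 0.95 ± 0.15 in the knockout (adjusted p = 0.00112), and an interaction of -1.57 ± 0.21 (adjusted p = 0.000883, and 0.0119 without codes 9 to 16). LOC100044256, named only as in the probe table, was detected on the 3 filled wild type arrays alone, at 5.64, 6.41 and 5.98, which is at least 2.36-fold above draining wild type loops. LOC100045403, likewise unnamed, rose by 0.93 ± 0.26 in wild type and fell by 0.99 ± 0.28 in the knockout, with -1.92 ± 0.38 (adjusted p = 0.0143, and 0.0563 without wild type self-filling replicate 3).

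In 44 of the 151 negative genes the knockout alone changed, by a fall. Arg2, the mitochondrial arginase, was at 9.33, 9.94, 9.61 and 9.88 in wild type self-emptying, 9.19, 9.48 and 8.20 in wild type self-filling, 7.55, 8.38 and 7.92 in IL10 knockout self-emptying and 5.49, 5.19 and 4.88 in IL10 knockout self-filling loops. Filled knockout loops were below all other arrays, and draining knockout loops were below all draining wild type ones. It fell by 2.76 ± 0.35 in the knockout (adjusted p = 8.84e-05), with an interaction of -2.03 ± 0.47 (adjusted p = 0.0273) that did not pass without background correction (adjusted p = 0.24). Asah2, the neutral ceramidase of the brush border, fell from 9.89, 10.23 and 9.91 to 7.65, 7.61 and 8.84 in the knockout, against 10.45, 9.85, 10.08 and 10.20 in draining and 10.97, 10.73 and 10.11 in filled wild type loops. Its interaction was -2.44 ± 0.53 (adjusted p = 0.0206).

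Pmp22, a tetraspan membrane protein also present at epithelial junctions, fell from 11.36, 12.32 and 12.27 to 10.25, 10.16 and 10.86 in the knockout and lay between 12.37 and 12.96 on all 7 wild type arrays. Its interaction of -1.93 ± 0.33 (adjusted p = 0.00689) passed in every fit that left out 1 array and without codes 9 to 16 (adjusted p = 0.0276), and a further probe gave -1.76. Cd55, which protects cells from complement, fell by 1.32 ± 0.35 in the knockout (adjusted p = 0.0359), with -2.21 ± 0.48 (adjusted p = 0.0206). Rbp7, a retinol-binding protein, fell by 1.94 ± 0.44, with -2.52 ± 0.60 (adjusted p = 0.0295). Cox7a2, a subunit of cytochrome oxidase, fell by 0.85 ± 0.20 and had -1.36 ± 0.27 (adjusted p = 0.0129). It was the only one of 19 respiratory chain genes to pass, and 1.34% of all genes had a negative call. Of the 19, 17 had a negative estimate (5200 of 11227 genes tested had a positive one), and the median was -0.31. Cyp51, of cholesterol synthesis, did not share that pattern: it rose in wild type by 0.52 ± 0.16 and had -0.89 ± 0.24 (adjusted p = 0.0485).

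LOC100045250, named only as in the probe table, had the largest negative estimate, -6.15 ± 1.51 (adjusted p = 0.0352), and a wide spread within groups. It was at 8.35, 8.18, 11.78 and 8.44 in wild type self-emptying, 8.56, 10.95 and 11.84 in wild type self-filling, 12.90, 8.31 and 9.19 in IL10 knockout self-emptying and 5.61, 4.49 and 5.64 in IL10 knockout self-filling loops. Filled knockout loops were below all others, and the other 3 groups overlapped. Without wild type self-filling replicate 3 its adjusted p was 0.119, and that of Rbp7 0.0896, Cd55 0.0732, Cox7a2 0.0526 and Cyp51 0.143. Without wild type self-filling replicate 1 it was 0.0711 for Arg2 and 0.0603 for Asah2.

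**Figure D4:**
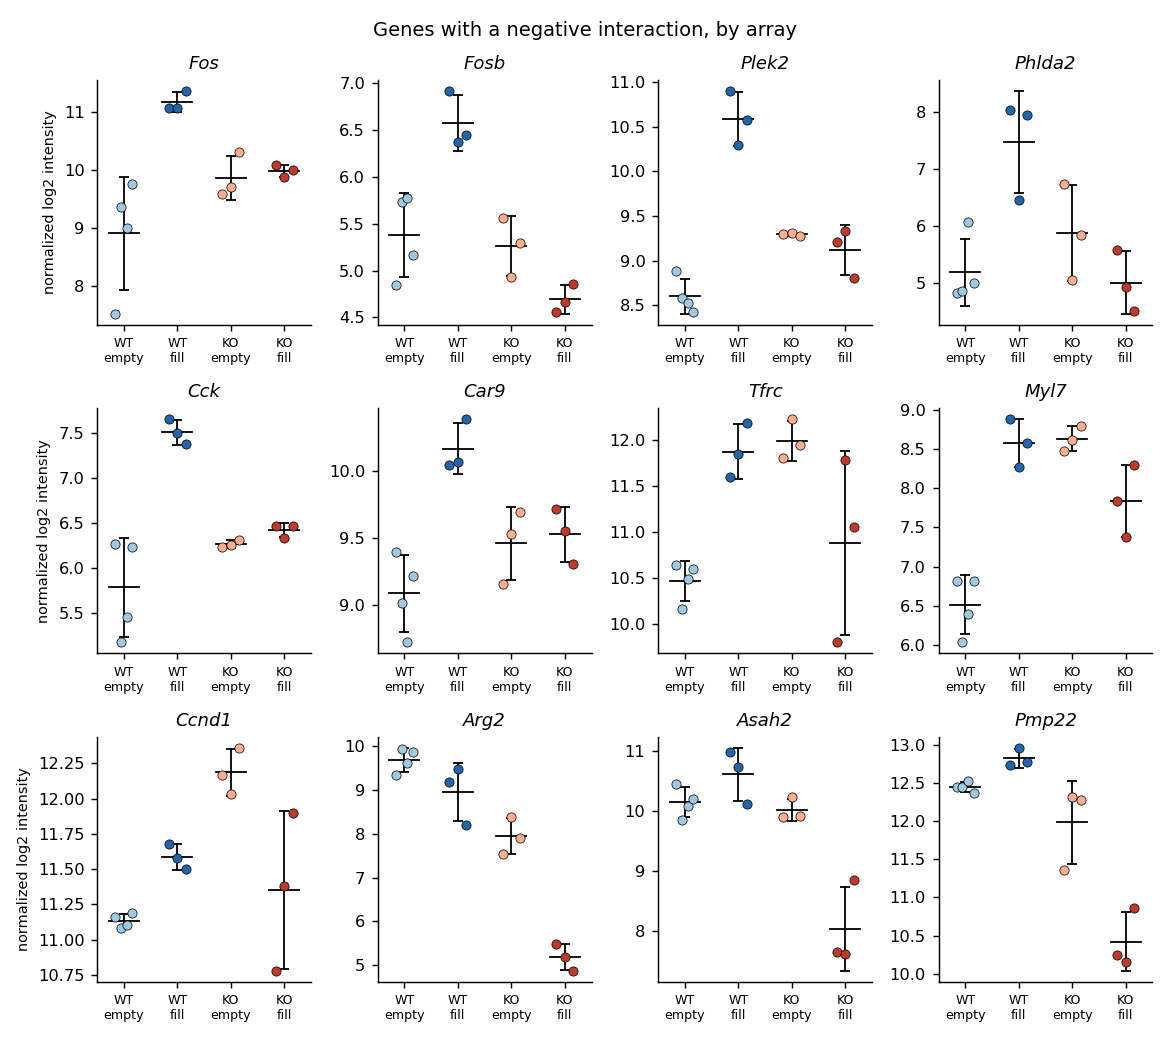
Normalized log2 intensity of 12 genes with a negative interaction on each of the 13 arrays, in wild type (WT) and IL10 knockout (KO) self-emptying (empty) and self-filling (fill) loops; lines are means and bars 1 SD. For Plek2, Cck and Car9 the 3 filled wild type loops stand above the draining ones and the knockout groups lie close together, whereas Arg2, Asah2 and Pmp22 are lowest in the 3 filled knockout loops.

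Of 720 symbols in the 42 lists, 562 were tested and 28 passed in the interaction, as did 2.36% of all genes tested. Several epithelial programmes that moved with stasis did so without a difference between genotypes that passed. Of 14 brush border enzymes 5 fell in wild type and 0 in the knockout, and the medians were -1.05 and -0.78, with 0 calls in the interaction (1 at an unadjusted p under 0.05) and a median of 0.08. Of 11 Paneth cell genes 3 fell in wild type and 5 in the knockout, with 0 calls in the interaction (5 at an unadjusted p). Of 13 goblet cell genes 4 rose in wild type and 1 fell in the knockout, again with 0 calls (6 at an unadjusted p). Of 19 large intestinal genes 5 rose in wild type and 2 in the knockout, 0 passed in the interaction (3 at an unadjusted p), and the median was 0.01. With stasis 5.94% of all genes rose and 5.59% fell in wild type, and 1.92% rose and 2.2% fell in the knockout. Over all genes the interaction had 2206 unadjusted p under 0.05, and a missed threshold does not show that these lists respond alike.

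Markers of the gut wall gave no call. None of 13 smooth muscle genes passed in limma in either genotype or in the interaction, where the median was 0.23, against 7, 2 and 0 at an unadjusted p under 0.05 in wild type, in the knockout and in the interaction. None of 18 fibroblast genes passed in the interaction (2 at an unadjusted p), with a median of 0.40. Their summed level nevertheless varied, from 14.08 to 15.95 over the arrays for smooth muscle. With the smooth muscle mean as a covariate 470 genes passed, including all 265. Ribosomal protein genes (14) and endoplasmic reticulum stress genes (16) had medians of 0.05 and 0.02 and 0 calls in the interaction, and 2 and 5 of them had an unadjusted p under 0.05.

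**Figure D5:**
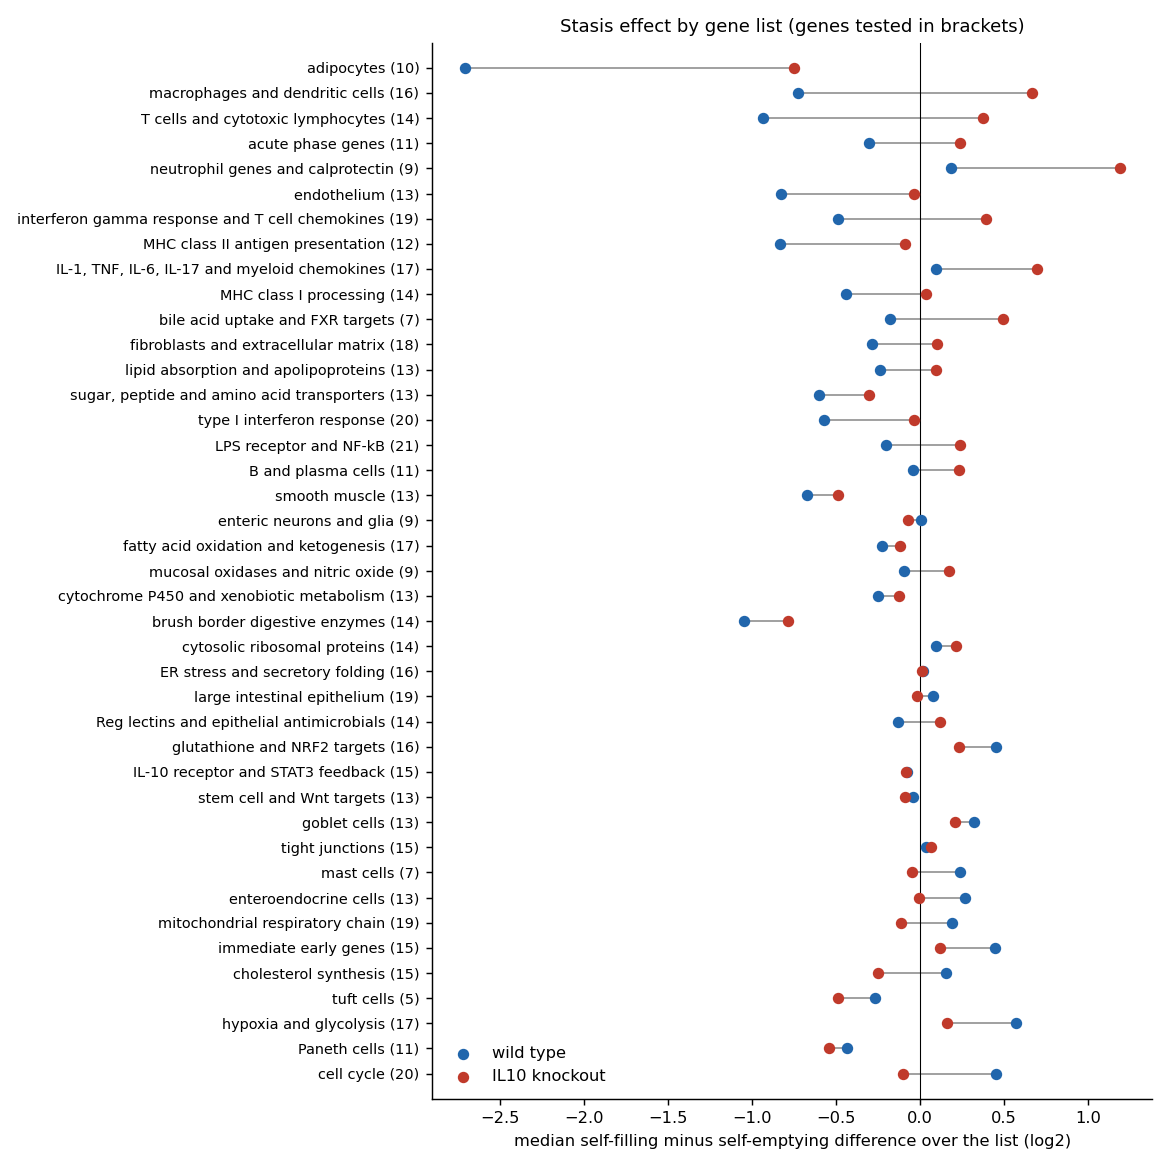
Median log2 self-filling minus self-emptying difference of each gene list with at least 5 genes tested, in wild type (blue) and IL10 knockout (red), ordered by the median interaction; a grey line joins the 2 genotypes. Macrophage and T cell lists lie left of 0 in wild type and right of 0 in the knockout, hypoxia and cell cycle lists lie farther right in wild type, and adipocyte genes have the lowest wild type median, -2.71.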

How the data were processed

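Per the file headers, the deposited table holds the average bead signal intensity per probe, a detection p-value and a bead number for each of 25 Illumina arrays of biotin-labelled total RNA, with no normalization. The authors' deposited value table holds log2 values of 17612 probes, and per the submitters' processing notes limma was used. Compared here, each of its 25 columns matched its own array best (lowest r 0.999993), on the log2 scale of background correction and quantile normalization. Its direction is that of the signal, and column medians were 6.02.

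Signals were background-corrected with normexp from the detection p-values, quantile-normalized and put on the log2 scale with an offset of 16 (neqc, limma 3.58.1, R 4.3.3). Of 25697 probes 15318 were detected (detection p-value under 0.05, as deposited) on 3 or more of the 25 arrays. The brightest gave each gene's value where a gene had several (2896 genes). Symbols were updated to RefSeq through Entrez identifiers (23788 probes), accessions (1148) or symbols, and 564 probes kept the file's name. limma fitted a mean per group over all 25 arrays, with 8 groups sharing one estimate of the spread, and 5 contrasts were tested with Benjamini-Hochberg adjustment over 11227 genes at 0.05. A fold against a group below background is a bound from the detection limit on each array. The script was tested on simulated data. Replicates are the numbers in the sample titles. Those of the descriptions differ, and correlations of same-numbered arrays ranged from -0.418 to 0.294 by title and from -0.532 to 0.294 by description, so the numbers were not taken to pair arrays. No arrays held identical values. The number of arrays limits the precision.

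Genes named are the 15 largest interactions in each direction, up to 4 passing members of each list (or, in a list with no passing member, the 2 of smallest p), Il10, Tlr4, and genes said to have been chosen after their values were seen. Members and lists were chosen with earlier results of these data known. Alternatives covered background, scaling, filter, probe choice, array weights, a mean-variance trend, blocks and each array left out.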

Additional observations from a re-analysis of the deposited data

Results flagged for a closer look

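The stasis effect differed between the genotypes for 265 genes by the test of the difference itself, as described above. In wild type self-emptying loops, the group with 4 arrays, 1 array stood far from the other 3 for 6 of 128 named genes, and chance sets an array apart in about 1 in 20 groups. Replicate 3 was high for Cd68, at 6.189 against 4.953 to 5.116, for LOC100045250, at 11.78 against 8.177 to 8.437, and for Phlda2, at 6.059 against 4.825 to 4.999. Replicate 2 was low for Akr1b8, at 5.173 against 6.016 to 6.179, and for Cox7a1, at 10.36 against 10.74 to 10.79. Replicate 4 was low for Dgat2, at 9.884 against 10.86 to 11.04. Groups of 3 were not examined this way.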

How the results depend on the processing

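The number of genes in the interaction, 265, was 94 on the 13 arrays alone, 827 with array weights, 9 without codes 9 to 16, and, as alternatives chosen after seeing the data, 16 without wild type self-emptying replicates 2 and 3, 112 with the adipocyte mean and 470 with the smooth muscle mean as a covariate. Leaving out 1 array gave 52 to 515. No background correction, the authors' values, the mean of probes, a trend, runs as a fixed or random block and the signal ratio (95th percentile over median signal) gave 278 to 334, no filter 226 and a stricter filter 358. All 265 kept their sign in every setting that held them (262 with the stricter filter), which their choice on the same arrays favours. Median scaling gave 232, of which 32.3% were positive against 43.0%, and moved the median over all genes to -0.18.

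Stasis in wild type passed for 1295 genes, and for 2375 with median scaling (83.2% higher against 51.5%, median over all genes 0.21), 2125 with array weights, 714 with runs as a block, 94 without codes 9 to 16, 307 with the signal ratio as a covariate, 86 without wild type self-emptying replicates 2 and 3, 159 with the adipocyte mean, and 356 to 1481 with 1 array left out. Stasis in the knockout passed for 462, and for 210 with median scaling (62.9% higher against 46.5%), 182 on 13 arrays, 106 without codes 9 to 16, and 104 to 759 with 1 array left out. The genotype difference in draining loops passed for 1072, and for 392 with median scaling, 2034 with array weights, 63 without codes 9 to 16, 260 without wild type self-emptying replicates 2 and 3, and 459 to 1148 with 1 array left out. In filled loops 1413 passed, and 778 to 1555 with 1 array left out. The causes were not tested, beyond the fewer arrays of some settings.

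With the replicate number as a block, 359 genes passed in the interaction by title numbers and 411 by description numbers. By neither numbering did every pair of same-numbered arrays correlate above 0.1, so the numbers were not taken to pair arrays, although the 6 pairs with description number 2 ranged from 0.0441 to 0.294.

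The Tlr4 interaction turned sign, to -0.0651 with runs as a block, -0.085 with the signal ratio, -0.153 without wild type self-emptying replicates 2 and 3, -0.253 with the adipocyte mean, and it ranged from -0.072 to 0.253 with 1 array left out. The Uchl1 interaction turned to -0.0433 without wild type self-emptying replicates 2 and 3. Probes near background limit Ifng, Cxcl10, Chil3, Il1r2, Fpr2, Tnf, Chil1 and Cd68 in wild type loops.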
